A study of Mus musculus with 12 samples.

Results

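The 8 genes described here encode isoforms of protein kinase C (PKC): *Prkca* and *Prkcb* of the conventional class, *Prkcd*, *Prkce*, *Prkch* and *Prkcq* of the calcium-independent class, and *Prkcz* and *Prkci* of the atypical class. They were taken by gene symbol from the 55418 genes of a count table and were followed over 12 brainstem libraries. Each library came from 1 outbred CFW mouse on postnatal day 15. Morphine mice (3 females and 3 males) had been injected with 15 mg/kg morphine 2 times a day after birth and were collected 16 h after the last dose, during spontaneous withdrawal, whereas saline mice (3 females and 3 males) had been injected with saline. The comparisons asked whether repeated neonatal morphine changed brainstem RNA levels in both sexes together, in females, in males, and differently between the sexes. All mice were pups of an outbred stock injected from the first postnatal days, saline controls included. The litter of each mouse is not given in the labels and could not enter the tests.

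PKC enzymes are serine/threonine kinases that act downstream of receptors coupled to Gq and phospholipase C. Phospholipase C makes diacylglycerol and releases calcium, and conventional isoforms respond to both signals, calcium-independent isoforms to diacylglycerol, and atypical isoforms to neither, being controlled by scaffold proteins instead. In neurons, PKC phosphorylates receptors and channels, and it has long been studied in opioid tolerance because it phosphorylates the mu opioid receptor and proteins that regulate it.

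The gene-level count does not separate the products of 1 gene, which matters most for *Prkcz*. This gene has an upstream start for full-length PKCζ and an internal start, active in brain, whose transcript encodes only the catalytic part, known as PKMζ. The RefSeq promoter table (GRCm38.p6) held 9 windows of 300 bases for 6 of the 8 genes, 3 of them for *Prkcz* on the minus strand of chromosome 4. *Prkce* and *Prkch* had no entry. The 3 *Prkcz* windows are shown because reads from transcripts of all 3 starts are summed in every *Prkcz* value below; capitals mark the GC box GGGCGG (or CCGCCC on the other strand) and the cAMP response element TGACGTCA, which reads the same on both strands.
*Prkcz* start 1, chr4:155361379-155361678: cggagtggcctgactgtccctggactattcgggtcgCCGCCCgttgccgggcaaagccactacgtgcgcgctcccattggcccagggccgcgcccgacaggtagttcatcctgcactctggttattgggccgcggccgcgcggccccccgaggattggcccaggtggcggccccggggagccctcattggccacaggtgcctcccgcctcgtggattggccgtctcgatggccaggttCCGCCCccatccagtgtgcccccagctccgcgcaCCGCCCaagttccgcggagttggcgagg
*Prkcz* start 2, chr4:155345740-155346039: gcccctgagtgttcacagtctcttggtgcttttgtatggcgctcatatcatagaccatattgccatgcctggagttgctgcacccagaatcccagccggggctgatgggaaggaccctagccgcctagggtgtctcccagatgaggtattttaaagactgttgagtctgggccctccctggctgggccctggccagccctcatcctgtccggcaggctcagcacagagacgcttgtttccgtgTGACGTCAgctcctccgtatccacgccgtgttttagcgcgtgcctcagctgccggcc
*Prkcz* start 3, chr4:155344700-155344999: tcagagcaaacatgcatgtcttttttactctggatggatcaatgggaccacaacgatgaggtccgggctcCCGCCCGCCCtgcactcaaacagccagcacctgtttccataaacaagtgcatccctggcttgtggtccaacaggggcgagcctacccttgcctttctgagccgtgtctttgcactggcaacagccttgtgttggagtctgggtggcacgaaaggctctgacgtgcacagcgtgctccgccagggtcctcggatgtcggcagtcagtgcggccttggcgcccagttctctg

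The upstream window was 71.0% G or C and held 3 GC boxes. The second start lay 15.6 kb inside the gene from the first, and its window, 59.3% G or C, held no GC box and 1 cAMP response element. The third start lay 16.7 kb inside the first and held 2 overlapping GC boxes. Of 32851 promoter windows of the same length, 1.79% held the cAMP response element and 35.66% held a GC box, and the *Prkcz* internal window was the only 1 of the 9 windows of these genes with the former. A match of letters is a description of the sequence and says nothing about which factor acts there.

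Total counts were 27850565 to 48097947 per library, and the 8 genes had between 241 and 8796 counts in a library. The tissue label was checked against markers. Brainstem neuron markers (such as *Tph2* and *Slc6a5*) summed to 597 to 781 CPM (counts scaled to a common library total), whereas thalamic markers summed to 31.2 to 38.3 CPM and T cell markers to 0.502 to 0.881 CPM. Markers of neighbouring tissue were present too, with Purkinje cell markers at 76.3 to 132 CPM, cerebellar granule cell markers at 19.0 to 76.8 CPM and choroid plexus markers at 7.63 to 809 CPM. In males, 3 of 4 granule cell and 2 of 3 choroid plexus markers were called higher with morphine (the call rule is given below). Of all genes tested in males, 2.99% were called in either direction. The granule cell sums were 26.6 to 29.2 CPM in saline males and 36.2 to 76.8 CPM in morphine males. Those of choroid plexus were 253 to 513 CPM and 404 to 809 CPM. Neuron markers summed lower in morphine males, at 4599 to 4646 CPM against 4942 to 5957 CPM. Astrocyte markers did so too, at 2260 to 2307 CPM against 2437 to 2615 CPM. Of 6 mature oligodendrocyte markers 1 was called lower, and their median log2 fold change in males was -0.342. It was -0.232 for neuron, -0.186 for astrocyte, -0.0224 for brainstem neuron and 0.261 for Purkinje cell markers. In both sexes together, 3 of 4 granule cell markers were also called higher, where 1.19% of all genes were called. For the difference between the sexes, 1 of 4 granule cell and 1 of 3 choroid plexus markers were called, both positive. Of 4 oligodendrocyte precursor markers 1 was called too, as negative. For this difference 2.94% of all genes were called. The median log2 value of the precursor markers was -0.265 for the difference and -0.211 in males. In females 0 of 4 granule cell, 0 of 3 choroid plexus and 0 of 4 precursor markers were called. The part of these marked tissues and cells in the comparisons below was not tested. The labels' extraction text names spinal cord, although the tissue label is brainstem. A pair of points about the male libraries bear on what follows. The library labelled morphine male 6 held 380 CPM of *Xist*, the RNA of the inactive X chromosome, against 2.71 CPM or less in the other 5 libraries labelled male. Its *Ddx3y*, a Y chromosome gene, was at 12.8 CPM against 118 CPM or more in those 5. Saline males 1 and 2 stood apart from saline male 3 across a large part of the table, as described with *Prkcz* below. With bulk tissue, fewer cells of a type and less RNA per cell cannot be told apart.

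Levels were compared between the genes as CPM per kb of exon. *Prkcb* (PKCβ; chr7:122288751-122634402, plus strand) was highest, at 23.3 ± 1.56 CPM per kb (SD, n = 12), followed by *Prkcz* (chr4:155260129-155361361, minus strand) at 21.2 ± 5.06 and *Prkce* (PKCε; chr17:86167785-86657919, plus strand) at 18.3 ± 0.80 CPM per kb. The range of *Prkcz* overlapped those of the other two, *Prkcb* being above *Prkcz* in 9 of 12 libraries and *Prkcz* above *Prkce* in 10. The ranges of *Prkcb* and *Prkce* did not meet. A step followed, since *Prkce* was above *Prkci* in 12 of 12 libraries and their ranges (17.0 to 19.9 and 9.26 to 14.6 CPM per kb) did not meet. *Prkci* (PKCι; chr3:30995747-31052959, plus strand) at 11.4 ± 1.45, *Prkcq* (PKCθ; chr2:11172108-11301222, plus strand) at 10.0 ± 0.80 and *Prkca* (PKCα; chr11:107933387-108343928, minus strand) at 9.17 ± 0.86 CPM per kb had overlapping ranges. *Prkcd* (PKCδ; chr14:30595354-30626210, minus strand) at 4.69 ± 0.60 and *Prkch* (PKCη; chr12:73584796-73778185, plus strand) at 1.22 ± 0.11 CPM per kb were each below the gene before them in 12 of 12 libraries. PKCθ is best known from T cells, yet *Prkcq* stood at 62.0 CPM or more in every library while all T cell markers together stayed under 0.881 CPM.

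**Figure D1:**
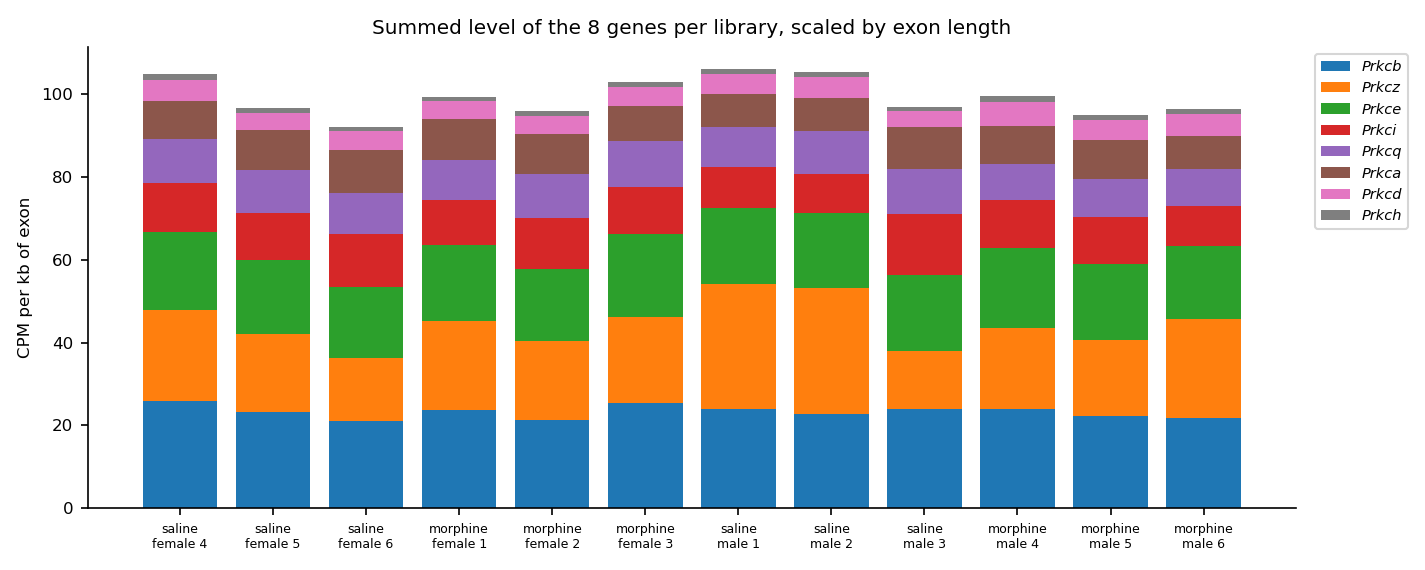
Stacked bars give the level of each of the 8 genes in CPM per kb of exon (vertical axis, from 0) in the 12 libraries, ordered by group. The stacks reach 92.1 to 106 CPM per kb, and the *Prkcz* segment is largest in saline males 1 and 2.

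Summed over the 8 genes, the per-kb level was 92.1 to 106 CPM per kb. Within that sum *Prkcb* made up 23.5% ± 1.12 (SD, n = 12), *Prkcz* 21.2% ± 4.30 and *Prkce* 18.4% ± 0.72. The share of *Prkcz* ran from 14.4% in its lowest library to 28.9% in its highest, while that of *Prkcb* ran from 21.5% to 24.8%. Exon lengths are the union over annotated transcripts, so a gene with long rarely used exons is placed too low on this scale. Of the exon bases, 472 of *Prkce* (6.50%) also belong to another annotated transcript on the same strand and 30 of *Prkca* (0.33%) to *Apoh* on the opposite strand.

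No PKC gene passed the call rule in any comparison. The rule was an unadjusted p under 0.05 in edgeR's quasi-likelihood F test together with a log2 fold change over 0.26 in size. All 8 genes were tested each time. In both sexes together, 0 of 8 were called against 1.19% of 18608 genes tested, and in females 0 of 8 against 1.81% of 18109. In males it was 0 of 8 against 2.99% of 18166, and for the difference of the change between the sexes 0 of 8 against 2.94% of 19027. By edgeR's exact test, not run for the difference, and by DESeq2 it was also 0 of 8 each time, and 0 of 8 had an unadjusted p under 0.05 by any of these tests. The smallest adjusted p of any of the 8 was 1.00 in the first 3 comparisons and 0.985 in the last. With shares of called genes this low, 8 genes without a call do not set the family apart from other genes. The median log2 fold change of the 8 genes was -0.01 in both sexes together, -0.03 in females and -0.03 in males, beside -0.02, -0.01 and -0.06 over all genes tested.

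**Figure D2:**
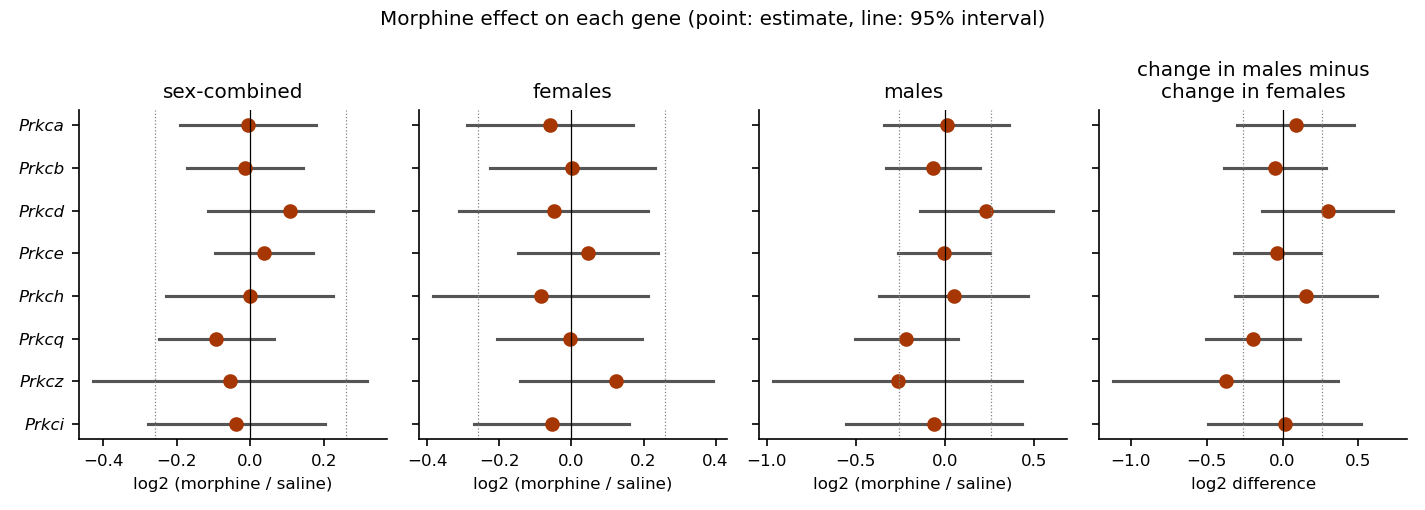
Points give the log2 fold change of morphine over saline for each gene (first 3 panels) or the male change less the female change (last panel), and lines give 95% intervals; dotted lines mark 0.26 in either direction. Every interval includes 0, and *Prkcz* has the widest except in females, where that of *Prkch* is wider.

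The intervals show what could have been missed. In both sexes together they were narrowest for *Prkce*, from -0.10 to 0.17 on the log2 scale, and also lay within the 0.26 bounds for *Prkca*, *Prkcb*, *Prkch* and *Prkcq*. For *Prkcz*, *Prkci* and *Prkcd* they reached past 0.26 in size, so a change of the called size lies within those 3 intervals. In males the interval of each of the 8 genes reached past 0.26 in size, the narrowest being that of *Prkce* (-0.27 to 0.25).

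Among the conventional isoforms, *Prkcb* was steady. Its level lay between 160 and 199 CPM in the 12 libraries, with morphine values from 163 to 195 CPM in females and 167 to 183 in males and saline values from 160 to 199 and 173 to 184. The log2 fold change was -0.01 (SE 0.07) in both sexes together. *Prkca* was at 81.1, 88.2 and 94.5 CPM in saline females and at 88.9, 88.7 and 76.8 in morphine females. It was at 73.3, 71.4 and 89.4 CPM in saline males and at 82.5, 83.1 and 71.6 in morphine males. The groups overlapped in each sex, and the log2 fold change was -0.06 (SE 0.10) in females and 0.01 (SE 0.15) in males.

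**Figure D3:**
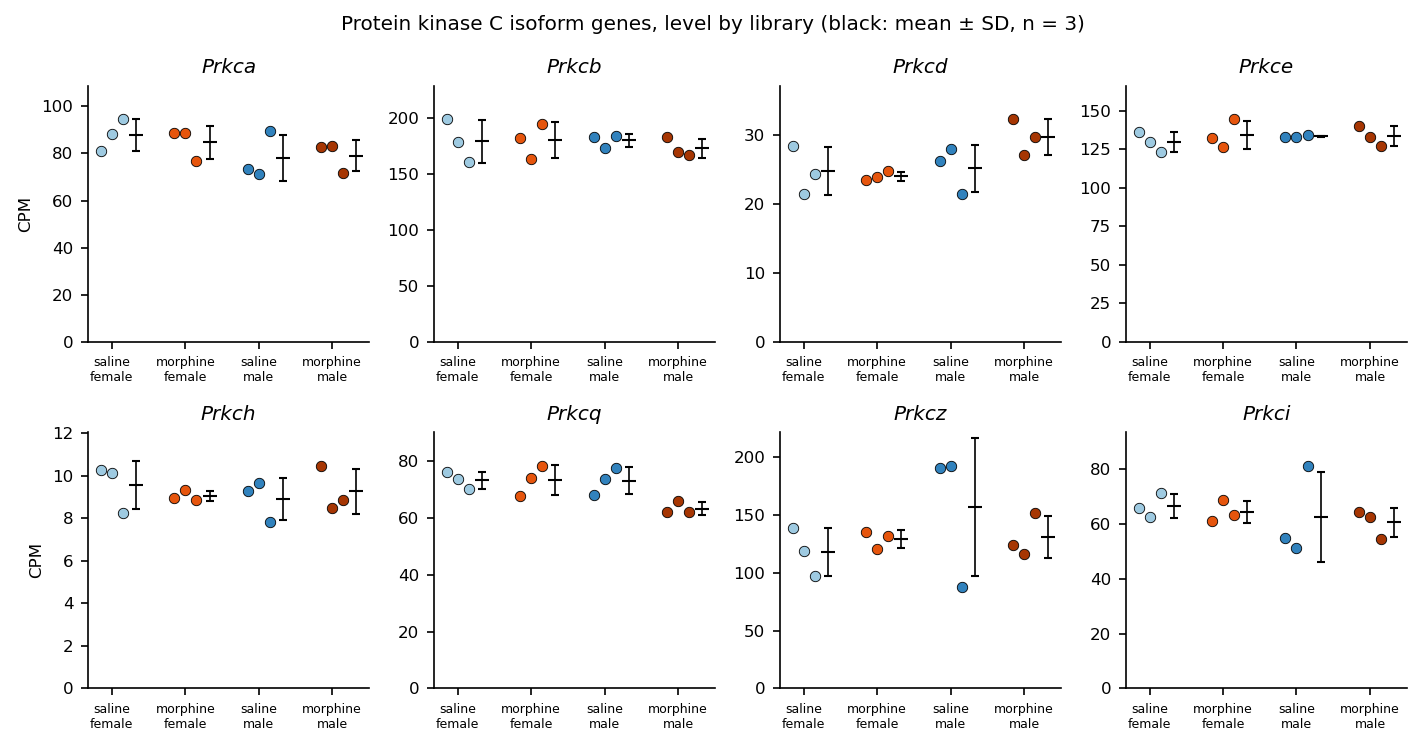
Each panel plots 1 gene's level in CPM (vertical axis, from 0) in the 3 libraries of each group, with the mean and SD in black. Morphine and saline overlap within each sex for every gene except *Prkcq* in males, and the spread is widest for *Prkcz* in saline males.

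In the calcium-independent class, the 2 genes with the larger estimates were *Prkcq* and *Prkcd*, and both estimates came from males. *Prkcq* was at 68.3, 73.8 and 77.7 CPM in saline males and at 62.1, 66.1 and 62.0 CPM in morphine males, so the groups did not overlap. In females the values were 76.2, 73.7 and 70.1 CPM with saline and 67.8, 74.0 and 78.5 CPM with morphine, which overlapped. The log2 fold change of *Prkcq* in males was -0.22 (SE 0.12, 95% interval -0.51 to 0.07, adjusted p = 1.00), short of the rule on both counts, and in females it was 0.00 (SE 0.09). The male change less the female change was -0.19 (SE 0.14, 95% interval -0.50 to 0.12). Non-overlap alone is common at this group size, having been seen in 1 of the 8 genes and in 9.1% of all genes tested in males, against 0 of 8 and 5.65% in females and 0 of 8 and 0.043% in both sexes together.

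*Prkcd* was at 26.2, 28.1 and 21.4 CPM in saline males and 32.3, 27.2 and 29.8 CPM in morphine males. The ranges overlapped through 1 library on each side, and the log2 fold change was 0.23 (SE 0.16, 95% interval -0.14 to 0.60). In females *Prkcd* was at 28.5, 21.5 and 24.5 CPM with saline and 23.5, 23.9 and 24.8 CPM with morphine, a log2 fold change of -0.05 (SE 0.12). *Prkce* varied least of the 8, at 123 to 144 CPM over the 12 libraries, with a log2 fold change of 0.04 (SE 0.06) in both sexes together. *Prkch* was the least abundant, at 7.81 to 10.5 CPM, and its log2 fold change was 0.00 (SE 0.11) in both sexes together.

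When gene-specific offsets for GC content and exon length were put into the fit, the male log2 fold changes of *Prkcq* and *Prkcd* were -0.25 (SE 0.07, adjusted p = 0.503) and 0.24 (SE 0.09, adjusted p = 0.530), past 0.05 before adjustment but under the fold bound. In that fit 2 of the 8 genes and 1648 of all 18166 genes tested were past 0.05 before adjustment, beside 0 and 543 in the main fit. Under the same offsets *Prkcq* passed the rule for the difference between the sexes, at -0.29 (SE 0.12, adjusted p = 0.777), when 5.73% of all genes passed. With total counts in place of TMM, *Prkcq* in males moved to -0.09 (SE 0.12) and *Prkcd* to 0.36 (SE 0.16), and neither was called. Without the library labelled morphine male 6, *Prkcq* in males was at -0.21 (SE 0.16), and without saline male 3 at -0.13 (SE 0.10), neither of them called.

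Of the 8 genes, *Prkcz* varied most between mice, with a coefficient of variation of 23.9% over the 12 libraries. It was at 190 and 192 CPM in saline males 1 and 2 and at 88.0 CPM in saline male 3, its highest and lowest libraries. Morphine males were at 124, 117 and 151 CPM, between those extremes. In females *Prkcz* was at 139, 119 and 97.2 CPM with saline and at 136, 120 and 132 CPM with morphine. The log2 fold change was 0.12 (SE 0.12) in females and -0.27 (SE 0.29, 95% interval -0.96 to 0.43) in males, and the difference between the sexes was -0.37 (SE 0.34).

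*Prkci*, whose product takes part in cell polarity complexes, ran the other way. It was at 55.1 and 51.4 CPM in saline males 1 and 2 and at 81.3 CPM in saline male 3. Morphine males were at 64.4, 62.7 and 54.7 CPM. In females it was at 65.8, 62.7 and 71.3 CPM with saline and at 61.2, 68.7 and 63.3 CPM with morphine. The log2 fold change was -0.05 (SE 0.10) in females and -0.06 (SE 0.21) in males.

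Over the 12 libraries, log2 *Prkcz* and log2 *Prkci* correlated at r = -0.92 (rho = -0.76), and the value was -0.89 without saline males 1 and 2, the libraries farthest from the *Prkcz* median. After group means were taken out, r was -0.95. *Prkca* sided with *Prkci* (r = 0.81, rho = 0.73) and against *Prkcz* (r = -0.84, rho = -0.84). Without the 2 libraries farthest from the median, these were 0.66 and -0.73. *Prkcb* and *Prkce*, the steady pair, correlated at r = 0.82 (rho = 0.88), and at 0.70 without such libraries. These 4 were picked from 28 pairs after their values were seen, and the points share their library, depth and scaling.

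**Figure D4:**
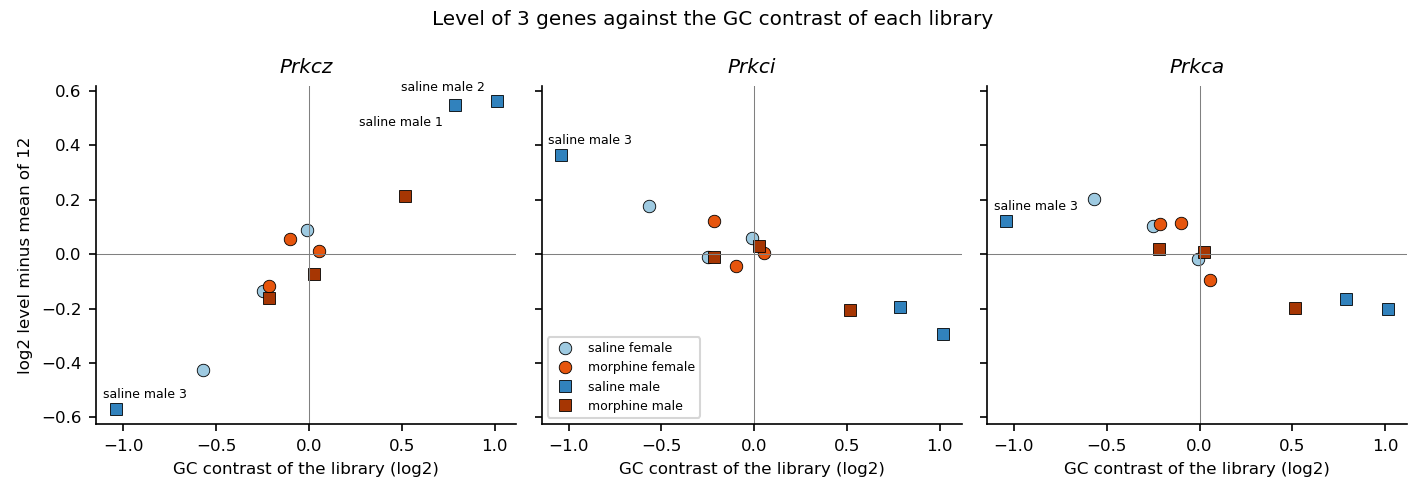
The log2 level of *Prkcz*, *Prkci* and *Prkca* minus its mean over 12 libraries (vertical axis) is plotted against the GC contrast of each library (horizontal axis, log2), with circles for females and squares for males. *Prkcz* climbs from saline male 3 on the left to saline males 1 and 2 on the right, and *Prkci* and *Prkca* descend.

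The opposed movement followed a property of whole libraries. For each library a GC contrast was computed over 11687 genes with a mean of at least 5 CPM, as the median log2 deviation of the quintile of genes with the highest GC content minus that of the lowest quintile. GC content was that of the longest annotated transcript of each gene. The contrast was 0.787 and 1.015 in saline males 1 and 2 and -1.04 in saline male 3, and between -0.57 and 0.52 in the other 9 libraries. *Prkcz* correlated with this contrast at r = 0.98, *Prkci* at -0.95 and *Prkca* at -0.88. The values between were 0.58 for *Prkcd*, 0.47 for *Prkch*, 0.13 for *Prkce*, 0.04 for *Prkcb* and -0.29 for *Prkcq*. A length contrast, computed in the same way from exon length, was -0.313 and -0.398 in saline males 1 and 2. It was 0.323 in saline male 3 and between -0.275 and 0.341 in the other 9 libraries. *Prkcz* correlated with it at r = -0.91, *Prkci* at 0.80 and *Prkca* at 0.85, the rest between -0.413 and -0.119. Which of GC content and length the movement followed was not tested. Of the other 11686 genes, 2465 (21.1%) correlated with *Prkcz* above 0.9 and 531 (4.54%) below -0.9. For *Prkce* both counts were 0.

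Correlations with the GC contrast rose with the GC content of the gene's longest transcript in all but *Prkcb*. From the lowest GC content, the order was *Prkci* (44.5%), *Prkca* (46.4%), *Prkcq* (47.8%), *Prkce* (50.2%), *Prkch* (52.1%), *Prkcd* (52.2%) and *Prkcz* (52.4%), the same order as that of their correlations with the GC contrast. *Prkcb*, at 52.9%, had the highest GC content and a correlation near 0. When the trend with GC content and length was removed from each library, the SD of log2 *Prkcz* went from 0.33 to 0.21, that of *Prkci* from 0.18 to 0.08 and that of *Prkca* from 0.14 to 0.08. The SD of *Prkcb* went up instead, from 0.10 to 0.20. *Prkcz* and *Prkci* then still correlated at r = -0.74. Ribosomal protein and oligodendrocyte marker sums were also highest in saline males 1 and 2. Cytosolic ribosomal protein genes summed to 10355 and 9952 CPM there against 5715 to 8723 CPM elsewhere. The 6 mature oligodendrocyte markers summed to 57446 and 60163 CPM against 33453 to 48938 CPM. Saline male 3, lowest in the GC contrast, was at 6013 and 38229 CPM, not the lowest library on either sum. Morphine male 6, with a GC contrast of 0.52, was at 7366 and 42389 CPM. The part of either sum in the *Prkcz* and *Prkci* levels was not tested.

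Leaving out saline male 3 changed the male result. *Prkcz* was then called lower in morphine males, at -0.51 on the log2 scale (SE 0.13, adjusted p = 0.0427), and in the difference between the sexes, at -0.68 (SE 0.19, adjusted p = 0.0386). The same omission raised the calls among all genes from 2.99% to 28.6% in males and from 2.94% to 24.1% for the difference, and the single call among 8 genes is read against those shares. An adjusted p under 0.05 was then reached by 2141 of 18652 genes in males and by 1796 of 19472 for the difference. With all mice the number was 0 in both. Without saline male 1 or saline male 2, *Prkcz* in males was nearer to 0, at -0.105 and -0.107. With saline male 3 and the library labelled morphine male 6 both left out, 2 of 8 genes were called in males, *Prkcz* at -0.66 and *Prkci* at 0.27, and likewise 2 of 8 for the difference, at -0.81 and 0.30. All genes then stood at 41% and 30.7% called.

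**Figure D5:**
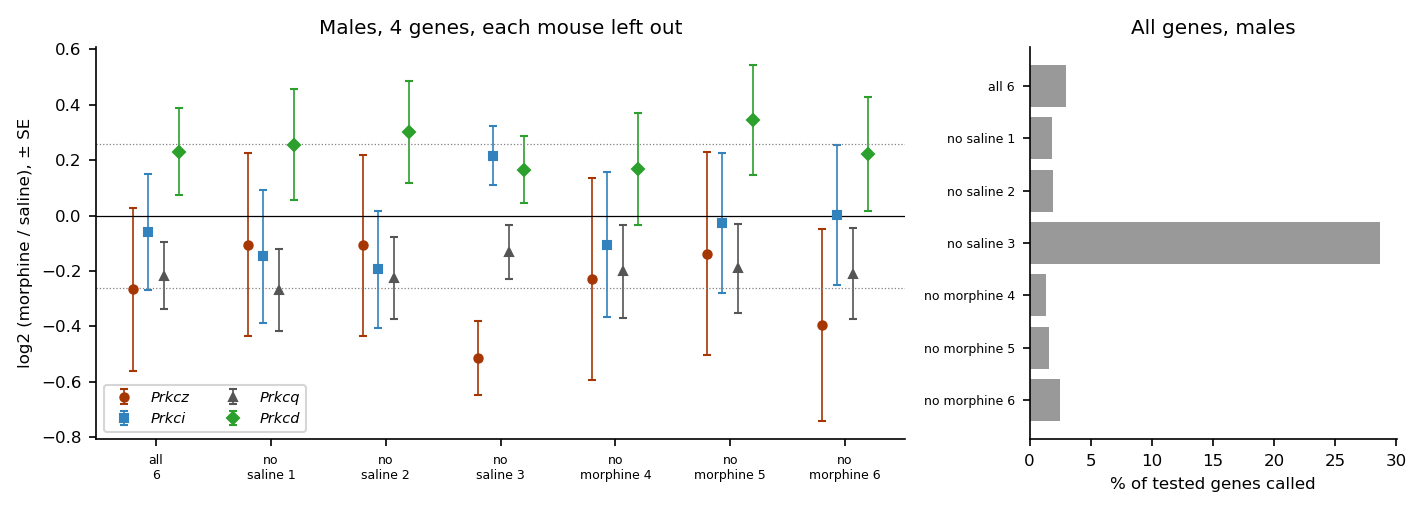
The left panel gives the log2 fold change in males (± SE) of *Prkcz*, *Prkci*, *Prkcq* and *Prkcd* with all 6 males and with each left out, and the right panel the percentage of all tested genes called. Without saline male 3 the *Prkcz* estimate goes to -0.51 and 28.6% of all genes are called.

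In both sexes together and in females, 0 of 8 PKC genes were called with any mouse left out. In the former, *Prkcz* was at -0.06 (SE 0.17) with all mice and at -0.18 (SE 0.13) without saline male 3, where *Prkci* was at 0.05 against -0.04 with all mice.

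Alongside the isoform genes, 58 other genes of the PKC pathway (Gq alpha subunits, phospholipases C, diacylglycerol kinases, other diacylglycerol-binding proteins, scaffolds, regulators, substrates and PKC-related kinases) are reported from the same fits. In both sexes together 0 of them were called higher and 0 lower, in females 2 and 0, in males 0 and 2, and for the difference between the sexes 0 and 2. Over all genes tested, 1.19%, 1.81%, 2.99% and 2.94% were called in these comparisons, and the counts of pathway genes lie near those shares. By edgeR 0 had an adjusted p under 0.05, and the numbers with an unadjusted p under 0.05 were 0, 2, 2 and 2 in that order, or 0, 2, 3 and 2 by DESeq2. The median log2 fold change of these 58 genes was -0.01, 0.02 and -0.06 in both sexes together, females and males.

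Of the 9 diacylglycerol kinases, which remove the PKC activator, 2 were called higher in females, where 1.81% of all genes were called in either direction. *Dgkz* was at 50.8, 45.2 and 36.6 CPM with saline and 58.3, 51.4 and 55.0 CPM with morphine (log2 fold change 0.31, SE 0.12, adjusted p = 1.00). These values did not overlap, as was the case for 5.65% of all genes tested in females. *Dgkq* was at 21.4, 17.7 and 17.1 CPM with saline and 25.7, 23.6 and 20.0 CPM with morphine (0.30, SE 0.13, adjusted p = 1.00). In males the log2 fold changes were -0.347 (SE 0.467) for *Dgkz* and -0.053 (SE 0.416) for *Dgkq*. In both sexes together they were -0.006 (SE 0.266) and 0.135 (SE 0.229), and neither gene was called in these comparisons. Both calls were lost in the fit of all 12 mice, where the female contrast was 0.31 (SE 0.37) for *Dgkz* and 0.30 (SE 0.33) for *Dgkq*. *Dgkz* was called in 8 of 14 alternatives (0.20 to 0.41) and *Dgkq* in 9 of 14 (0.22 to 0.39). Tallies of this kind, here and below, include p alone, which is the main fit without its fold bound. A call cannot be lost under it. Both calls were also lost without saline female 5, saline female 6 or morphine female 1, that of *Dgkz* without morphine female 3 or with GC and length offsets (0.20) and that of *Dgkq* without morphine female 2.

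Of the 8 PKC substrates, 2 were called lower in males, where 2.99% of all genes were called in either direction. *Marcksl1*, a membrane-bound regulator of actin, was at 215, 271 and 163 CPM in saline males and 153, 152 and 163 CPM in morphine males (log2 fold change -0.48, SE 0.18, adjusted p = 1.00). *Gap43*, a growth cone protein, was at 168, 160 and 157 CPM in saline males and 141, 129 and 131 CPM in morphine males (-0.28, SE 0.11, adjusted p = 1.00). The groups did not overlap for either gene, as was the case for 9.1% of all genes tested in males. For *Marcksl1* the nearest saline and morphine values both round to 163 CPM. *Marcksl1* was called in 8 of 15 alternatives in males, with estimates from -0.66 to -0.27, and *Gap43* in 4 of 15, from -0.32 to -0.15. With GC and length offsets *Marcksl1* was at -0.27 and no longer called, whereas *Gap43* was at -0.26 and called. With total counts neither was called, at -0.355 and -0.153. With 1 male left out, both calls held only where that male was saline male 3, when 28.6% of all genes were called. The 2 called for the difference between the sexes were *Marcksl1* (-0.53, SE 0.23, adjusted p = 0.985) and *Nrgn* (-1.12, SE 0.47, adjusted p = 0.985). *Nrgn*, a calmodulin-binding substrate of PKC, was at 10.2, 13.4 and 4.17 CPM in saline males, again with saline males 1 and 2 high, and at 4.76, 4.62 and 5.85 CPM in morphine males. *Marcksl1* was called for the difference in 10 of 19 alternatives (-0.76 to -0.22) and *Nrgn* in 11 of 19 (-1.61 to -0.70). GC and length offsets moved *Marcksl1* to -0.22, which was not called, and *Nrgn* to -0.70, which was. With total counts both calls were lost, at -0.427 and -1.025. Both calls were lost without saline male 1 or 2, saline female 6, or morphine male 4 or 5, that of *Marcksl1* also without morphine female 3 or morphine male 6 and that of *Nrgn* without morphine female 1 or 2.

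For each of the 8 genes, the 2 other genes with the most similar pattern over the 12 libraries were found by the correlation of log2 CPM among 11687 genes. *Prkcz* was most like *Adap1* (r = 0.998, 0.996 without saline males 1 and 2) and *Tex264* (0.997, 0.994). *Prkci* was most like *Acer3* (0.983) and *Cntn1* (0.977), and *Prkca* like *Sema5a* (0.978) and *Prkd3* (0.969). The best matches were *Zfp239* (0.926) and *Blmh* (0.910) for *Prkcb*, *Cmss1* (0.882) and *Lrrtm3* (0.847) for *Prkce*, and *Faf2* (0.889) and *Arpin* (0.839) for *Prkch*. *Prkcq* was most like *Kcnk1* (0.962) and *Bcas1* (0.952), a gene of newly myelinating oligodendrocytes, and *Prkcd* like *Slc7a8* (0.925) and *Syt2* (0.922). These matches share library, depth and the GC contrast described above and carry no test.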

How the data were processed

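Brainstem (medulla and pons) RNA from 12 CFW mice was sequenced as polyA-selected, single-end libraries. Per the labels and the study's methods, Trimmomatic, STAR (mm10) and featureCounts over exons were the authors' trimming, alignment and counting tools. The study calls its deposited counts normalized, whereas the deposited values are whole-number counts per gene with a different total in each mouse, and they were fitted as raw counts. The strand setting of the counting is not given in the sources used here. The study's own edgeR test was exactTest.

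Groups were taken from the sample labels. Counts were fitted with R 4.3.3 and edgeR 4.0.16 (TMM scaling, filterByExpr, glmQLFit and glmQLFTest) on all genes, adjusting for sex where both sexes were combined and using a treatment by sex term for the difference. Genes were called at an unadjusted p under 0.05 and a log2 fold change over 0.26 in size, with Benjamini-Hochberg adjustment over all genes beside it. Levels are CPM after TMM over 12 libraries, with a prior count of 2 for logs. Exon lengths, GC content and positions came from GENCODE M21, in which all 55418 symbols were found. GC content was that of the longest annotated transcript of a gene. The GC and length trend was a loess fit with a span of 0.5. Alternatives were exactTest, DESeq2 1.42.0, its size factors, total counts, no filter on low counts, GC and length offsets, other model terms, p alone, and each mouse left out. The joint omission of saline male 3 and morphine male 6 was added once values were known. The main fit was first checked on simulated counts for both sexes together, for females and for the difference. The male fit, of the same form as the female fit, and the alternatives were not simulated. The simulated libraries had no GC contrast between them.

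Text names all 8 isoform genes, pathway genes called in a comparison (at most 5 each) and the 2 genes most like each isoform gene. A pathway gene and a marker gene that were planned are not reported here, and counts and sums leave them out. Members and lists were chosen with earlier results of these data known. Group sizes of 3 limit precision, and intervals cover the spread between these mice only.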

Additional observations from a re-analysis of the deposited data

Results flagged for a closer look

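Within the 6 saline or 6 morphine libraries, no library of any of the 8 isoform genes stood far enough from the others to be singled out by Dixon's ratio. Of the 26 gene and treatment sets examined, 3 had such a library, all of them other pathway genes in morphine libraries, and chance alone gives about 1 in 20. *Dgkz* reached its highest morphine value, 78.6 CPM, in morphine male 6, whose sex-linked genes go against its label. *Gap43* was at 187.6 CPM and *Marcksl1* at 212.0 CPM in morphine female 3, each the highest. Differences of the morphine effect between the sexes at an unadjusted p under 0.05 were seen for *Marcksl1* (-0.53 in log2, males minus females) and *Nrgn* (-1.12), both with an adjusted p = 0.985.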

How the results depend on the processing

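In both sexes together and in females, 0 of the 8 isoform genes were called under each of 22 and 14 alternatives, leaving out any mouse included. In males 0 to 1 were called with each mouse left out, and likewise 0 to 1 for the difference between the sexes; the exception was saline male 3 in both cases, and only *Prkcz* was called there. With GC and length offsets 1 was called for that difference (*Prkcq*), and with saline male 3 and morphine male 6 both left out 2 were called in males and 2 for the difference. No other alternative changed a count of isoform genes called. The cause was not tested.

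Estimates near 0 changed sign in places, in no case with a call except *Prkci* below. With total counts in place of TMM the median of all genes in males went from -0.064 to 0.061, and the calls in both sexes together went from 51.1% to 72.7% higher (females 51.2% to 60.5%, males 64.3% to 91.3%, difference 54.7% to 81.2%). GC and length offsets gave 37.5%, 51.3% and 39.3% higher in females, males and for the difference. DESeq2 gave 41.3% higher for the difference. Under total counts *Prkca*, *Prkcb*, *Prkch* and *Prkci* were at 0.0415, 0.0348, 0.0487 and 0.0100 in both sexes together, *Prkcq* at 0.0015 in females, *Prkcb*, *Prkce* and *Prkci* at 0.0607, 0.1178 and 0.0678 in males, and *Prkcb* and *Prkce* at 0.0517 and 0.0655 for the difference. Under GC and length offsets *Prkcq* and *Prkci* were at 0.0372 and 0.0018 in females, *Prkca* at -0.0360 in males, and *Prkca* and *Prkci* at -0.0334 and -0.0598 for the difference. DESeq2 and its size factors each put *Prkce* at 0.0111 in males, and put *Prkci* at -0.0084 and -0.0085 for the difference. The contrast from the fit of 12 mice put *Prkcq* at 0.0026 in females and *Prkce* at 0.0176 in males. Without saline male 3 and morphine male 6, *Prkca* and *Prkci* were at 0.0394 and 0.0663 in both sexes together, and *Prkce* and *Prkci* at 0.0498 and 0.2682 in males.

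With each mouse left out in turn, log2 fold changes in both sexes together ran from -0.0435 to 0.0236 for *Prkca*, -0.0661 to 0.0160 for *Prkcb*, -0.0100 to 0.0535 for *Prkce*, -0.0614 to 0.0287 for *Prkch*, -0.1804 to 0.0383 for *Prkcz* and -0.0987 to 0.0516 for *Prkci*. In females they ran from -0.1233 to 0.0098 for *Prkca*, -0.0591 to 0.0743 for *Prkcb*, -0.1372 to 0.0498 for *Prkcd*, -0.0097 to 0.0872 for *Prkce*, -0.0559 to 0.0525 for *Prkcq* and -0.1041 to 0.0119 for *Prkci*. In males they ran from -0.0630 to 0.1596 for *Prkca*, -0.1061 to 0.0037 for *Prkcb*, -0.0449 to 0.0497 for *Prkce*, -0.0481 to 0.1630 for *Prkch* and -0.1942 to 0.2169 for *Prkci*. For the difference they ran from -0.0024 to 0.1821 for *Prkca*, -0.1472 to 0.0132 for *Prkcb*, -0.0887 to 0.0206 for *Prkce* and -0.1184 to 0.2344 for *Prkci*.

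Counts over all genes moved more. Without the filter on low counts 754, 1094, 985 and 1665 genes were called in both sexes together, females, males and for the difference, beside 221, 328, 543 and 559. GC and length offsets gave 1223 in males and 1090 for the difference, and the contrast from the fit of 12 mice gave 218 in females. With each mouse left out the counts ran from 177 to 458, 208 to 1482, 253 to 5341 and 290 to 4695. Without saline male 3 and morphine male 6 they were 380, 7548 and 5952 in both sexes together, males and for the difference. Libraries with the same number, which are of opposite sex, deviated together at r = 0.279 to -0.607. Since libraries also differ as wholes, as in the GC contrast, these values cannot tell whether such mice are paired. With the replicate block in both sexes together, 0 of 8 isoform genes and 204 of all genes were called. Groups within a sex share no numbers.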
